A study of Mus musculus with 8 samples.

Results

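Glycerophosphodiester phosphodiesterase genes (Gdpd1, Gdpd2, Gdpd3, Gdpd5 and Gde1), the autotaxin gene Enpp2 and the lysophosphatidic acid receptor genes Lpar1, Lpar2 and Lpar4 were examined in RNA sequencing of sorted mouse bone marrow cells. These 9 members were taken by symbol from the 20207 genes of the files. They were chosen because Gdpd3 had the largest ratio of RPKM between CML stem cells and normal haematopoietic stem cells (HSCs) in these same libraries. Some genes of its enzyme family, the autotaxin gene and some receptors of its product were added to it. Gdpd4 and Gpcpd1 of that family and the receptor genes Lpar3, Lpar5 and Lpar6 were not among them. Differences of the members between CML and normal cells are therefore given as descriptions without a p-value, and so is the difference of Gdpd3 between stem cells and progenitors, since CML progenitors bore on its choice.

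Lysophosphatidic acid (LPA) is a lipid with a single acyl chain that acts as an extracellular signal through G protein-coupled receptors. Autotaxin, a secreted lysophospholipase D, makes LPA from lysophosphatidylcholine outside cells, and the enzymes encoded by Gdpd1 and Gdpd3 are lysophospholipases D that can make it inside cells. Other members of the glycerophosphodiester phosphodiesterase family act on glycerophosphodiesters such as glycerophosphoinositol and glycerophosphocholine.

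The study compared stem and progenitor cells of healthy mice with those of mice with a chronic myelogenous leukaemia (CML)-like disease. According to the methods, CML-affected mice carried Tal1-tTA and TRE-BCR-ABL1, so that the Tal1 element drove tTA in blood-forming cells and BCR-ABL1 was induced when doxycycline was withdrawn, and their controls carried Tal1-tTA alone. Long-term (LT) cells were CD150+CD48-CD135- KLS+, short-term (ST) cells were CD150-CD48-CD135- KLS+, and committed progenitors were KLS- (cKit+, lineage-negative, Sca-1-). The 8 libraries were 2 of normal LT-HSCs, from mice of 2 and 6 months, 1 each of normal ST-HSCs and normal KLS- cells from mice of 2 months, 2 of LT-CML stem cells, and 1 each of ST-CML stem cells and CML-KLS- cells, whose labels give no age. The sources disagree on the mice: the methods describe CML-affected mice and healthy littermates on FVB/N, all young adults of 1 age range, whereas the labels give C57BL/6 for every mouse and 6 months for 1 normal library. Which of these holds could not be settled, and any difference in strain or age between CML and normal mice cannot be told apart from disease. The labels do not say whether replicates were separate animals or pools, and the p-values measure only the spread between these libraries. In bulk RNA, more cells with a transcript and more transcript per cell cannot be told apart.

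Levels are in RPKM, mapped reads scaled by transcript length and library size, as the authors deposited them. In 85.0% of 6300 low genes, the values of a gene fell on whole multiples of 1 step across libraries (tolerance 0.05 of a step). Several step sizes were tried for each gene, and the share that would match without a true step was not taken. Steps of 4987 genes were set against exon lengths, and 1375 of them lay at the mode. That mode put the depth at an estimated 17.8 to 23.9 M reads a library. For a transcript of 1 kb, 3 reads correspond to 0.126 to 0.168 RPKM. Slamf1 (CD150) followed the LT label, at 10.7 to 35.5 RPKM in the 4 LT libraries and 0.955 to 2.87 RPKM in the other 4. Flt3 (CD135) and Cd48, sorted against in LT and ST cells, were present in all stem libraries. Flt3 was at 2.52 to 3.95 RPKM in normal LT-HSCs and 11.9 to 19.2 RPKM in LT-CML cells. In ST cells Flt3 was at 61.6 (normal) and 71.6 RPKM (CML), above the KLS- library of each state. Cd48 was at 5.17 to 10.45, 16.8 to 29.5 and 41.8 to 45.15 RPKM in normal LT, LT-CML and ST cells, below both KLS- libraries. The purity of the sorts was not tested. Hlf and Mecom, transcription factors of stem cells, were at 14.9 to 67.0 RPKM in the stem libraries and at 0.418 to 1.75 RPKM in the KLS- libraries. Neutrophil and monocyte genes (9 of 10 markers listed, none at 0) summed to 414 to 3851 RPKM in normal stem libraries and 435 to 2735 RPKM in CML stem libraries, and normal LT-HSC replicate 2 stood apart with S100a8 at 1802 RPKM and Hbb-b1 at 56.3 RPKM. Stromal markers (7 of 8 listed) summed to 6.35 to 8.80 RPKM in normal and 8.71 to 10.9 RPKM in CML libraries. Of these, Col1a1, Col3a1 and Dcn were at 0.124 RPKM or less in each library, Lepr was at 2.68 to 6.73 RPKM, and Pdgfrb was at 0.890 to 3.05 RPKM in normal and 3.66 to 5.81 RPKM in all 4 CML libraries. The part of these markers in the results was not tested.

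The enzymes share a histidine and an arginine codon at the start of their catalytic domain, which are shown because they mark the 5 genes as 1 family. The capitals are these 2 codons, inside 45 coding bases read 5′ to 3′ from the NCBI Build 37 genome (the sequence of mm9) with GENCODE M1 transcripts. In Gdpd3 (chr7:133910105-133910441, plus strand), Gdpd1 (chr11:86877418-86887356, minus strand), Gdpd2 (chrX:97929360-97929526, plus strand) and Gdpd5 (chr7:106597571-106600241, plus strand) the stretch lies in 2 coding exons with an intron between them, and in Gde1 (chr7:125848922-125848966, minus strand) in 1 exon.
Gdpd3: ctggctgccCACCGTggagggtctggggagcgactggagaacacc
Gdpd1: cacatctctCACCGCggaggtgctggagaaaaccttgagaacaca
Gde1: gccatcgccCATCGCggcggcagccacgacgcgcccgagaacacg
Gdpd2: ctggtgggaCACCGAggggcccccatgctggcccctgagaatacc
Gdpd5: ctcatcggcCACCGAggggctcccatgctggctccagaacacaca

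The predicted Gdpd3 protein has 330 residues and that of Gdpd1 has 314, and 40.5% of 304 aligned residues were identical. Gdpd2 (539 residues) and Gdpd5 (607 residues) were identical at 45.6% of 498 aligned residues. Of the receptors, Lpar1 and Lpar2 were identical at 58.5% of 306 aligned residues, whereas Lpar4 shared 59.8% of 291 with Lpar6 and 22.6% of 186 with Lpar1.

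Gdpd3 changed from a transcript near the limit of detection in normal stem cells to one of the more abundant transcripts in CML stem cells. It was at 0.329 and 0.314 RPKM in the normal LT-HSC libraries, 0.249 RPKM in normal ST-HSCs and 1.43 RPKM in normal KLS- cells. In CML it was at 95.0 and 88.5 RPKM in the LT libraries, 131.9 RPKM in ST cells and 41.1 RPKM in KLS- cells. All 4 CML libraries lay above all 4 normal libraries, and the gap between the groups ran from 1.43 to 41.1 RPKM. The estimated reads behind these values were 5 to 8 in normal stem libraries, 31 in normal KLS- cells and 781 to 2625 in CML libraries. Gdpd3 was above 42.3 to 43.4% of all genes in normal stem libraries and above 97.4 to 98.3% in CML stem libraries.

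The mean of Gdpd3 was 105 ± 23.4 RPKM over the 3 CML stem libraries (SD) against 0.297 ± 0.0422 RPKM over the 3 libraries of normal HSCs, which is a ratio of 354. Within LT cells alone the ratio of means was 286, and between the single ST libraries it was 530. For the single KLS- libraries the ratio was 28.6. On the log2(RPKM + 1) scale, which understates changes of low genes, the difference between CML stem cells and normal HSCs was 6.33 (SE 0.18). The difference within LT cells was 6.13 (SE 0.19). Gdpd3 was at 95.0 RPKM in LT-CML replicate 1 and 88.5 RPKM in LT-CML replicate 2. Mpo, of the neutrophil and monocyte markers, was at 5.20 and 1291 RPKM in these libraries and highest in KLS- cells (7891 and 13120 RPKM). Lyz2, of the same markers, went the other way, at 153.5 and 117.9 RPKM. The part of such genes in the level of Gdpd3 was not tested.

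The order of Gdpd3 across populations was opposite in the 2 states. In normal mice KLS- cells had the highest level, 4.82 times the mean of the 3 stem libraries. In CML the KLS- library had the lowest level, and the mean of the 3 stem libraries was 2.56 times higher. ST cells lay above both LT libraries in CML and below both in normal mice, but the normal values rest on an estimated 7, 8 and 5 reads. Across both states, the fitted LT minus ST difference of Gdpd3 was -0.22 (SE 0.43, adjusted p = 0.824 from limma, 95% interval -1.19 to 0.75 in log2). This fit takes the difference to be the same in both states, so the opposite orders went into its spread. It cannot show that LT and ST cells were alike within a state.

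Gdpd3 lies on chromosome 7 of mm9 from 133909928 to 133919157 on the plus strand and overlaps the antisense gene Gm9967, for which no value was used here. The kit's strand setting is not given in the sources used here, so reads of the antisense gene cannot be told apart from those of Gdpd3. Mapk3, which encodes the kinase ERK1 and ends 594 bases before Gdpd3, was at 8.97 to 11.2 RPKM in all 8 libraries. Its mean in CML stem cells was 1.02 times that in normal HSCs (log2 difference 0.03, SE 0.14). Ypel3, 1311 bases after Gdpd3, was at 4.43 ± 0.437 RPKM in CML stem cells and 4.50 ± 2.12 RPKM in normal HSCs (SD, n = 3 each). Farther away, the ratio of CML stem to normal HSC means was 0.796 for Coro1a, 1.01 for Bola2, 0.921 for Tbx6, which stayed under 0.2 RPKM, and 0.969 for Ppp4c. The 3 stem libraries of each state overlapped for each of these 6 neighbours.

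**Figure D1:**
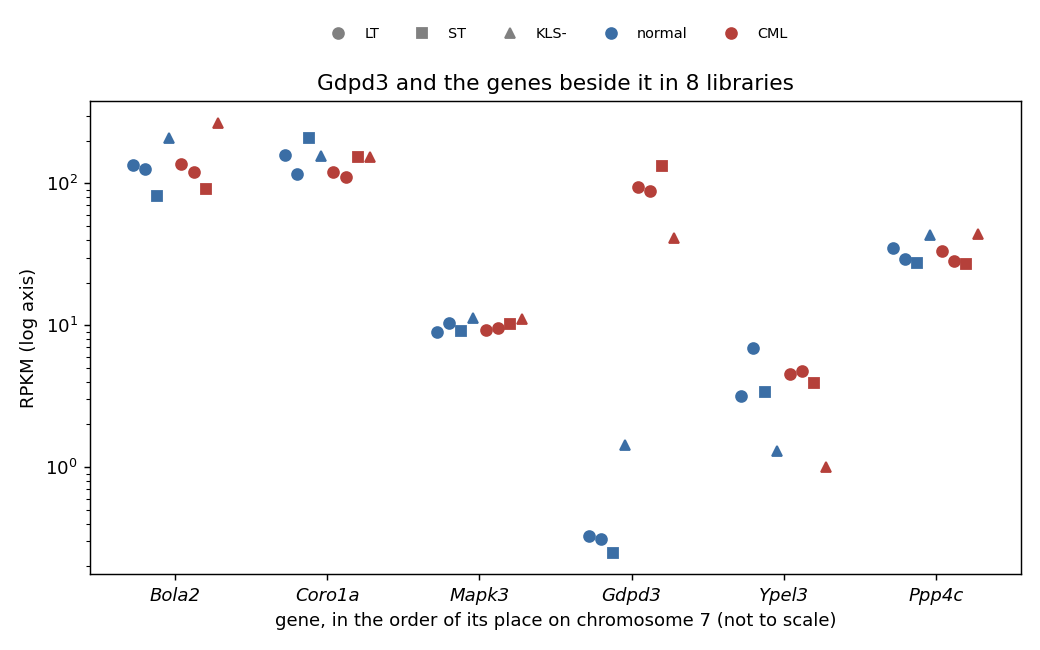
RPKM on a log axis (vertical) of Gdpd3 and 5 neighbouring genes (horizontal, in chromosomal order and not to scale) in 8 libraries, 1 point a library, blue for normal and red for CML, with circles for LT, squares for ST and triangles for KLS-. The CML libraries stand at 41.1 to 131.9 RPKM for Gdpd3 and the normal ones at 0.249 to 1.43 RPKM, whereas the stem libraries of both states overlap for each neighbour drawn.

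Gdpd1, whose enzyme is the closest in sequence to that of Gdpd3 among the 5, differed far less. Its level was 1.23 and 1.20 RPKM in normal LT-HSCs, 1.29 RPKM in normal ST-HSCs and 1.11 RPKM in normal KLS- cells. In CML it was 2.04 and 1.33 RPKM in LT cells, 1.81 RPKM in ST cells and 1.72 RPKM in KLS- cells. The 4 CML libraries lay above the 4 normal ones, but the lowest of them, LT-CML replicate 2, was close to the highest of the normal ones, the ST-HSC library. The log2 difference between CML stem cells and normal HSCs was 0.28 (SE 0.14).

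Gde1, a broadly expressed family member that acts on glycerophosphoinositol, was the most abundant of the 5 enzyme genes in each normal library. Its RPKM was 6.39 and 4.85 in normal LT-HSCs, 3.72 in normal ST-HSCs, 2.62 in normal KLS- cells, 5.50 and 6.11 in LT-CML cells, 4.46 in ST-CML cells and 4.33 in CML-KLS- cells. CML and normal libraries overlapped, with a log2 difference of 0.10 (SE 0.20) between stem cells of the 2 states. In both states the LT libraries were the highest and the KLS- library the lowest. Neither order passed the threshold across all genes, at 0.41 for stem minus KLS- (SE 0.16, adjusted p = 0.0650 from limma) and 0.40 for LT minus ST (SE 0.17, adjusted p = 0.240 from limma).

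Gdpd2 and Gdpd5, which encode the multi-pass membrane enzymes of the family, were close to undetected. Gdpd2 was at 0 in 4 libraries and highest in LT-CML replicate 2, at 0.296 RPKM or about 14 reads. Gdpd5 had at most 10 estimated reads, in ST-CML cells at 0.150 RPKM. Their totals over the 8 libraries were 0.565 and 0.355 RPKM, under the minimum of 1 RPKM, and they did not enter the fits.

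As a sum over the 5 enzyme genes, the libraries held 5.20 to 7.95 RPKM in normal cells and 47.3 to 138 RPKM in CML cells. Gdpd3 made up 4.13 to 4.87% of this sum in normal stem libraries, 27.5% in normal KLS- cells, 91.9 to 95.4% in CML stem libraries and 86.8% in CML-KLS- cells.

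Enpp2 was low in every library and had no common direction with disease. It was at 0.108 and 0.0775 RPKM in normal LT-HSCs, 0.295 RPKM in normal ST-HSCs, 0.106 and 0.288 RPKM in LT-CML cells and 0.156 RPKM in ST-CML cells. The KLS- libraries, at 0.0180 RPKM in normal and 0.0205 RPKM in CML mice, lay below all 6 stem libraries with about 1 read each. Its log2 difference was 0.03 (SE 0.11) between CML stem cells and normal HSCs. Stem minus KLS- was 0.21 (SE 0.11, adjusted p = 0.124 from limma). With a total of 1.07 RPKM over the 8 libraries, Enpp2 was just above the minimum for the fits. It passed that minimum only through its stem libraries, so its p-value for stem minus KLS- adds no support to the order of the values.

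Lpar2, a receptor that couples LPA to several G proteins, was the receptor member that was higher in each CML library. Its RPKM was 0.211 and 0.147 in normal LT-HSCs, 0.345 in normal ST-HSCs and 0.217 in normal KLS- cells, against 1.36 and 1.06 in LT-CML cells, 1.72 in ST-CML cells and 1.58 in CML-KLS- cells. The groups did not overlap, and the estimated reads were 20 to 37 in normal libraries and 110 to 183 in CML libraries. The means of stem cells were 1.38 ± 0.332 RPKM in CML and 0.234 ± 0.101 RPKM in normal mice (SD, n = 3 each), a ratio of 5.88 and a log2 difference of 0.94 (SE 0.14). The ratio was 7.27 between the single KLS- libraries. Unlike for Gdpd3, the KLS- library of each state lay within the range of its stem libraries. The mean of the stem libraries over the single KLS- library was 0.876 in CML and 1.08 in normal mice. The fitted stem minus KLS- difference over both states was -0.01 (SE 0.11, adjusted p = 0.939 from limma, 95% interval -0.26 to 0.24 in log2). This fit takes the difference to be the same in both states, so it cannot show closeness within a state. Lpar2 passed the minimum on total RPKM only through its CML libraries.

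Lpar1, the first LPA receptor described and common in fibroblasts and the nervous system, was at 0.247 and 0.0872 RPKM in normal LT-HSCs, 0.555 RPKM in normal ST-HSCs and 0.162 RPKM in normal KLS- cells. In CML it was at 0.0862 and 0.163 RPKM in LT cells, 0.511 RPKM in ST cells and 0.468 RPKM in KLS- cells. ST cells lay above LT cells in both states. The LT minus ST difference was -0.42 (SE 0.12), and it missed the threshold across all genes (adjusted p = 0.0991 from limma) on values of 6 to 37 reads. Between CML stem cells and normal HSCs Lpar1 differed by -0.05 (SE 0.17).

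Lpar4, a receptor of the family that is related to P2Y receptors, was a transcript of stem cells in both states. It was at 0.757 and 0.909 RPKM in normal LT-HSCs, 0.465 RPKM in normal ST-HSCs, 0.581 and 0.454 RPKM in LT-CML cells and 0.405 RPKM in ST-CML cells. The KLS- libraries held 0.0932 RPKM in normal and 0.0530 RPKM in CML mice, or about 8 and 4 reads. All 6 stem libraries lay above both KLS- libraries. Stem minus KLS- was 0.53 (SE 0.11, adjusted p = 0.00388 from limma). Lpar4 passed the minimum on total RPKM only through its stem libraries, so this p-value adds no support to the order of the values. Without the normal KLS- library, which left 1 KLS- library, the difference was 0.45 and missed the threshold (adjusted p = 0.0620 from limma). Between CML stem cells and normal HSCs Lpar4 differed by -0.20 (SE 0.13) with overlapping groups.

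**Figure D2:**
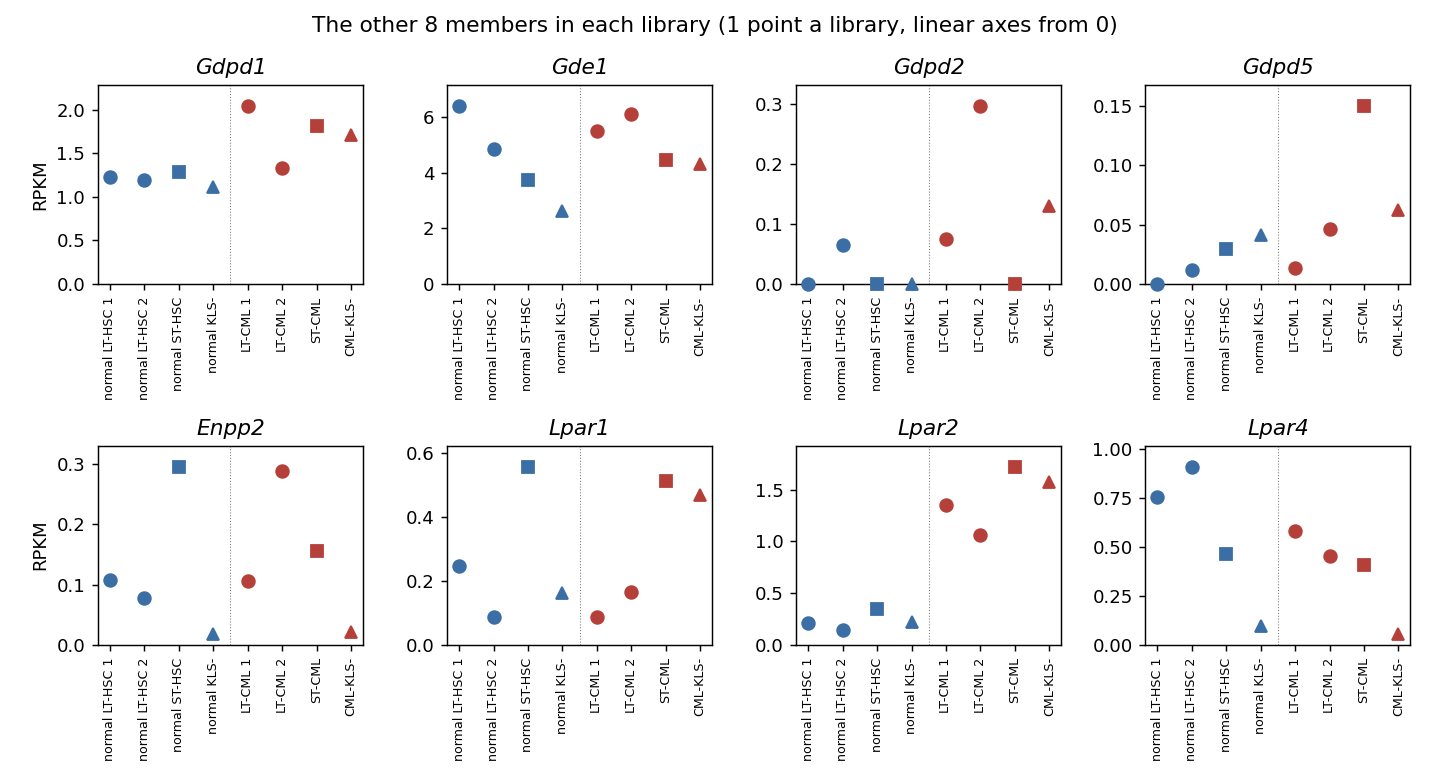
RPKM (vertical, linear from 0) in each of the 8 libraries (horizontal) for the members other than Gdpd3, 1 panel a gene, blue for normal and red for CML, with circles for LT, squares for ST and triangles for KLS-. Lpar2 is at 1.06 RPKM or more in each CML library and at 0.345 RPKM or less in each normal one, Lpar4 is lowest in both KLS- libraries, and the panels of Gde1, Gdpd2, Gdpd5, Enpp2, Lpar1 and Lpar4 show CML and normal libraries that overlap.

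Over the 9 members, all 4 CML libraries lay above all 4 normal libraries for Gdpd3, Gdpd1 and Lpar2, and the other 6 overlapped. Among the 12561 genes tested, 2.41% had all CML libraries above all normal ones. The 3 CML stem libraries lay above the 3 normal HSC libraries for the same 3 members, as they did for 6.92% of genes. The members were chosen on this contrast, and nothing is read from these counts. Over all genes, 2.34% were called (adjusted p under 0.05 from limma) between CML stem cells and normal HSCs, and 1.73% between LT-CML cells and normal LT-HSCs.

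Between stem cells and KLS- cells 48.7% of all genes were called, and those called higher in stem cells were 26.5% of all genes. Of the 6 members tested in it, 1 (Lpar4) was called, a gene that entered the fits only through its stem libraries. Between LT and ST cells 4.87% of all genes were called and none of the 7 members was. At an unadjusted p under 0.05 from limma, Lpar1 and Gde1 passed in the latter contrast. The share of all genes at that threshold was not taken, and nothing is read from this.

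**Figure D3:**
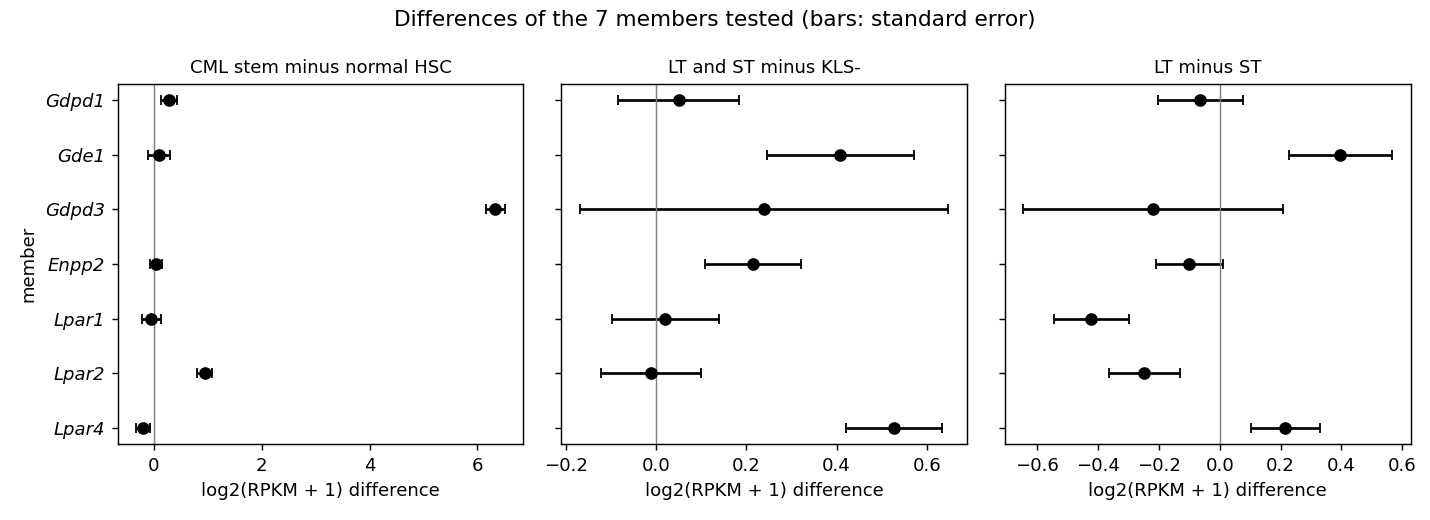
Difference in log2(RPKM + 1) (horizontal) of the 7 members tested (vertical) for CML stem cells minus normal HSCs, LT and ST cells minus KLS- cells, and LT minus ST cells, with bars for the standard error from limma and a separate scale for each panel. Gdpd3 stands at 6.33 and Lpar2 at 0.94 in the first panel, Lpar4 is at 0.53 in the second, and Lpar1 at -0.42 and Gde1 at 0.40 lie farthest from 0 in the third.

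The windows before the start sites of the 3 members with all CML libraries above all normal ones are shown for comparison of their letters. Each is the 250 bases before the start of the RefSeq transcript on GRCm38.p6, read 5′ to 3′ on the gene's strand, at chr7:126766164-126766413 for Gdpd3, chr11:87074138-87074387 for Gdpd1 and chr8:69822315-69822564 for Lpar2. Capitals mark matches on either strand to 4 motifs, namely TTCNNNGAA as bound by STAT factors, AGATAA as bound by erythroid factors such as Gata1, the E-box CACGTG of basic helix-loop-helix factors, and the box GGGCGG of Sp1-like factors. The motifs do not overlap one another in these windows.
Gdpd3: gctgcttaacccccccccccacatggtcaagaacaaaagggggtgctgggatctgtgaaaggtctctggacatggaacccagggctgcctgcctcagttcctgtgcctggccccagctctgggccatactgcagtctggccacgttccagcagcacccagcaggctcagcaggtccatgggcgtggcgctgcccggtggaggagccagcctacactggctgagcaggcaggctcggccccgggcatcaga
Gdpd1: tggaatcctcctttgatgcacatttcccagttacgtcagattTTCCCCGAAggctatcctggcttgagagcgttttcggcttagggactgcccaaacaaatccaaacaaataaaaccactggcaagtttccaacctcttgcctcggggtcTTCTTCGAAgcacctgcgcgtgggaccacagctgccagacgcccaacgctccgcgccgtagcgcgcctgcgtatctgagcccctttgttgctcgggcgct
Lpar2: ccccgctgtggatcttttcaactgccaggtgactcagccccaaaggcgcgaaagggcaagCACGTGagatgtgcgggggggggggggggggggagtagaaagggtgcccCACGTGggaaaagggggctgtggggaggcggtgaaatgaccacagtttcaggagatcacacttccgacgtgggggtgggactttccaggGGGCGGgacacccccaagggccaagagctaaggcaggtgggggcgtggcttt

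In these windows Gdpd1 held 2 matches to TTCNNNGAA, and 7.02% of 32851 promoter windows of this length hold at least 1. Lpar2 held 2 matches to CACGTG (at least 1 in 6.02% of windows) and 1 to GGGCGG (at least 1 in 32.7% of windows). None of the 3 held AGATAA (9.99% of windows), and Gdpd3 held none of the 4 motifs. The GC content of the windows was 65.2% for Gdpd3, 56.0% for Gdpd1 and 64.4% for Lpar2, against a median of 52.4% over all windows.

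The receptor members were a small share of LPA receptor transcripts. Lpar6, which is no member, was at 13.2 to 30.6 RPKM and made up 73.2 to 90.9% of the summed RPKM of the 6 receptor genes. Lpar2 made up 0.662 to 1.29% of that sum in normal libraries and 3.73 to 7.81% in CML libraries. Lpar5 was at 1.61 to 3.43 RPKM in normal libraries and 2.79 to 5.71 RPKM in CML libraries, and was lower in LT than in ST cells (-0.67, SE 0.15, adjusted p = 0.0336 from limma). Lpar3 had at most 3 estimated reads.

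**Figure D4:**
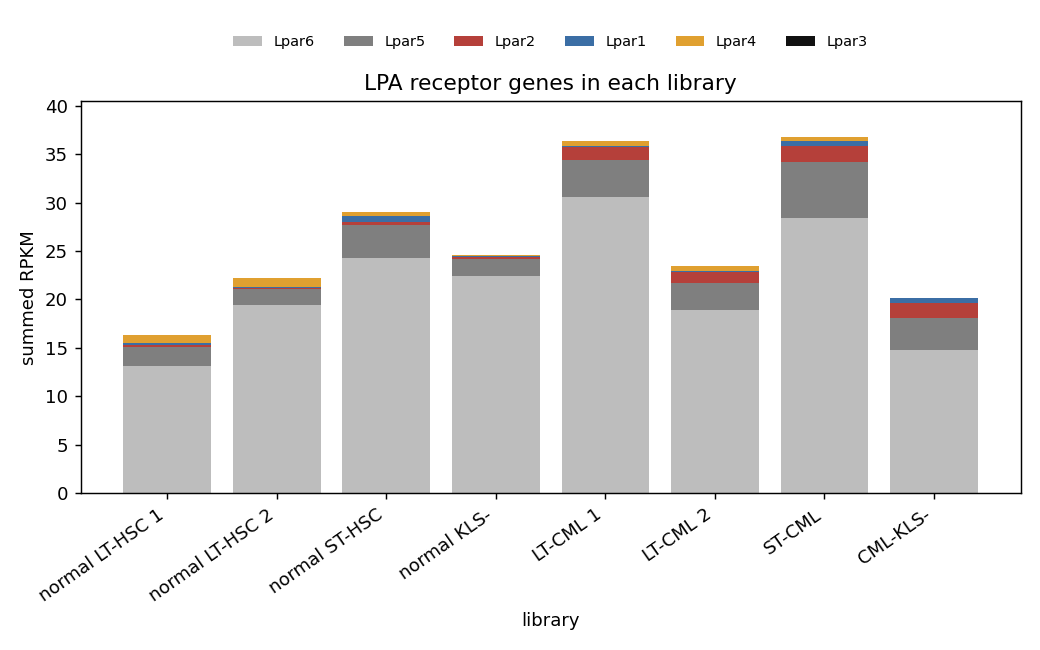
Summed RPKM (vertical) of the 6 LPA receptor genes in each of the 8 libraries (horizontal), stacked by gene. Lpar6 fills 73.2 to 90.9% of each bar, and the part of Lpar2 is 3.73 to 7.81% in the CML libraries and at most 1.29% in the normal ones.

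Genes around the members in LPA and lysophospholipid metabolism were taken from lists by function, with 84 of 86 genes found in the files. Beside the members, 66 genes of these lists were tested. Between CML stem cells and normal HSCs 1 was called higher and none lower, beside 2.34% of all genes called, with a median log2 difference of 0.04 against -0.04 over all genes. That gene was Lyplal1, a lysophospholipase-like protein, at 0.74 (SE 0.14, adjusted p = 0.0478 from limma). Within LT cells alone it was at 0.81 (SE 0.19, adjusted p = 0.105 from limma), and none of the 66 genes was called. Gpcpd1, listed in the files as Prei4, a glycerophosphocholine phosphodiesterase of the same family as Gdpd3, lay in the other direction at -0.85 (SE 0.17, adjusted p = 0.0507 from limma), from 8.65 RPKM in normal HSCs to 4.40 RPKM in CML stem cells.

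Of the LPA-producing genes, 7 of 9 were tested and none was called between CML stem cells and normal HSCs. Their largest differences were 0.29 for Napepld and 0.23 for Abhd4, which act in the synthesis of N-acylethanolamines. Among the 4 phosphatases that remove LPA, the largest were 0.39 for Acp6 and -0.34 for Ppap2b, with none called. For the 15 acyltransferases that use lysophospholipids, Lpcat2 (-0.67) and Mboat1 (0.60) differed most and none was called. Pla2g15, a lysosomal phospholipase, differed by 0.54 and was not called.

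Receptors of other lysophospholipids had the largest median difference between stem and KLS- cells of the lists. Of 8 tested, 5 were higher and 1 lower in stem than in KLS- cells, beside 26.5% of all genes called higher and 48.7% called in either direction, with a median log2 difference of 0.77 against 0.08 over all genes. S1pr1, the main receptor for sphingosine 1-phosphate in cell egress, was at 2.97 (SE 0.15, adjusted p = 7.88e-06 from limma), and P2ry10, Gpr132, Ptafr and S1pr4 were also higher (2.27, 1.42, 0.89 and 0.66). P2ry10 (0.0349 and 0.278 RPKM in normal and CML KLS- cells) and Ptafr (0.136 and 0.586 RPKM) passed the minimum on total RPKM only through their stem libraries. Their calls, and their part in the count and the median, therefore add no support. S1pr3 was lower (-1.85, SE 0.17, adjusted p = 8.36e-05 from limma). Gpr132 and S1pr3 were both lower in LT than in ST cells (-0.80 and -0.77). None of the 8 was called between CML and normal stem cells, where S1pr1 was at -0.93 (SE 0.22, adjusted p = 0.0937 from limma) and S1pr3 at 0.40.

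In the remaining enzyme lists, genes called in stem against KLS- cells went both ways. Abhd4 (0.88), Pla2g4a (0.85), which releases arachidonic acid, and Ppap2b (1.40), a lipid phosphate phosphatase, were higher in stem cells, as was Gpcpd1 (0.73), and Napepld was lower (-0.58). Ppap2b passed the minimum on total RPKM only through its stem libraries, so its call adds no support. Of the acyltransferases, Agpat4 (0.90), Agpat3 (0.68) and Agpat2 (0.42) were higher, and Agpat5 (-0.95) and Lpcat2 (-0.44) were lower. Of the lysophospholipases, Abhd6 (1.99) and Lyplal1 (0.40) were higher, and Pla2g15 (-1.22) and Prdx6 (-0.56) were lower. Over the 66 genes, 21 were higher and 8 lower, beside 48.7% of all genes called. Those higher include P2ry10, Ptafr, Ppap2b and Faah, which passed the minimum on total RPKM only through their stem libraries.

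The 8 genes whose log2(RPKM + 1) followed that of Gdpd3 most closely over the 8 libraries, among 10032 genes with a mean of at least 1 RPKM, had Pearson correlations of 0.977 to 0.983. These correlations describe 8 points that fall into a CML and a normal cluster. The genes were 1700112E06Rik, Gm1821, Xrcc6bp1, LOC218963, Zfp458, Trim21, AI429214 and Abhd1. In each, the CML stem libraries lay above the normal ones. LOC218963 had the largest ratio of stem means, 173, from 0.980 to 169.8 RPKM, and Gm1821, an annotated pseudogene whose reads may be shared with related copies, followed with 80.3. Abhd1 had the smallest, 3.59. In the KLS- libraries the ratio of CML to normal was 254 for LOC218963, 83.1 for Gm1821 and 3.88 for Abhd1, above the ratio of stem means. It was below that ratio for the other 5, at 8.11 against 8.60 for 1700112E06Rik, 3.98 against 4.13 for Xrcc6bp1, 4.60 against 7.69 for Zfp458, 9.16 against 11.5 for Trim21 and 10.4 against 15.7 for AI429214. Gdpd3, at 28.6 against 354, lay in the direction of these 5. Trim21, an E3 ubiquitin ligase that binds antibodies in the cytosol, is on chromosome 7 like Gdpd3 but starts at 109706436. Within the members, Lpar2 had a correlation of 0.953 with Gdpd3 over the same 8 libraries.

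**Figure D5:**
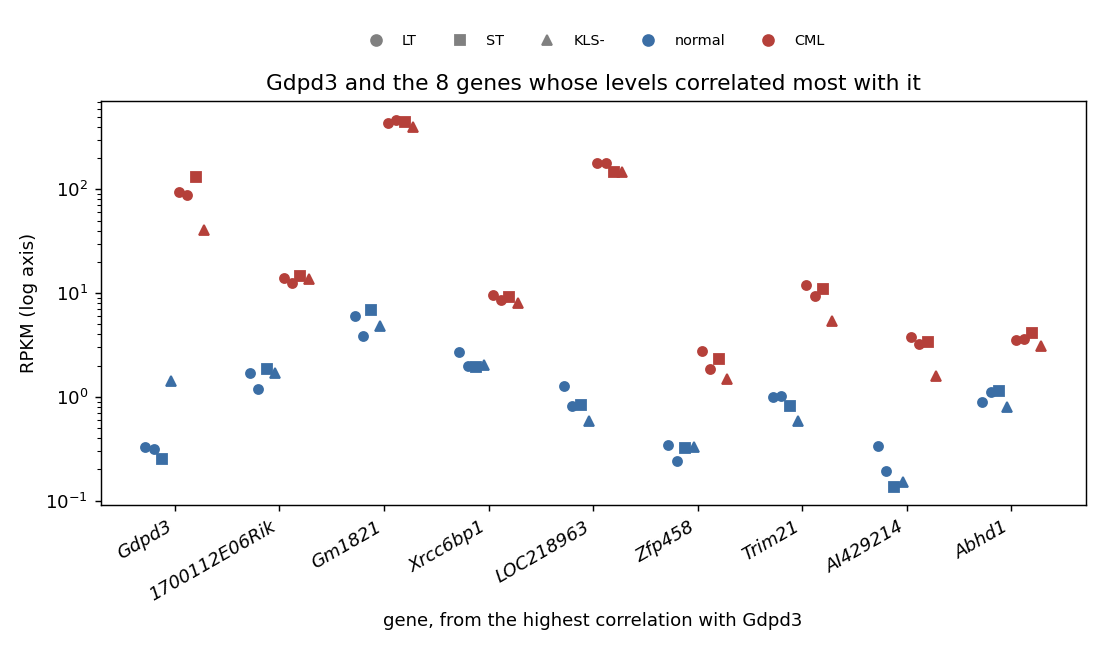
RPKM on a log axis (vertical) of Gdpd3 and of the 8 genes with the highest Pearson correlation with it (horizontal, from the highest), 1 point a library, blue for normal and red for CML, with circles for LT, squares for ST and triangles for KLS-. Each gene forms a normal and a CML cluster, and Gdpd3 has the widest spread of the KLS- points from the stem points of its own state.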

How the data were processed

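RNA from 8 sorted bone marrow libraries (SMARTer Ultra Low Input kit, oligo-dT priming, paired-end Illumina reads) was mapped by the authors to mm9, and they deposited RPKM for each gene. The aligner's settings, the annotation and the treatment of reads with several matches are not given in the sources used here. RPKM are not counts, so linear models were fitted to log2(RPKM + 1) by limma 3.58.1 under R 4.3.3, with variance shrinkage along the intensity trend. Genes whose 8 values summed to more than 1 RPKM entered (12561), p-values were adjusted over all of them by the method of Benjamini and Hochberg, and the threshold was 0.05. CML stem cells were compared with normal HSCs (3 against 3) and LT-CML with LT-HSCs (2 against 2, in a fit of 6 group means). Stem against KLS- and LT against ST cells were fitted over all 8 libraries with disease as a covariate, and the single KLS- libraries were compared by value. Reads were estimated from the steps of low RPKM and GENCODE M1 transcript lengths, with the length alone where no step matched it, and cover counting error only. The fits were tested on simulated data.

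The members and lists were chosen with earlier results of these data known. Genes named beside the members are list genes called in stem against KLS- or LT against ST cells, the 2 of each list with the largest pooled disease difference, the 8 genes most correlated with Gdpd3 and the 3 annotated neighbours with values on each side. Alternatives covered the pseudocount, the minimum, quantile and upper-quartile scaling, the covariates and samples of each fit, and leaving out each library. Python 3.11.15, pandas 2.3.3 and Biopython 1.88 were used for the rest. Promoter windows are from RefSeq (GRCm38.p6).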

Additional observations from a re-analysis of the deposited data

Results flagged for a closer look

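Gdpd3 differed in direction between states in both comparisons of cell types. Every CML stem library lay above the CML-KLS- library while every normal stem library lay below the normal KLS- library, with mean log2(RPKM + 1) differences of 1.31 in CML and -0.91 in normal mice, a difference of 2.22. Both LT-CML libraries lay below the ST-CML library while both normal LT-HSC libraries lay above the normal ST-HSC library, with differences of -0.52 and 0.08, a difference of -0.60. Neither difference between states was tested, each side has a single KLS- or ST library, and the normal stem values rest on 5 to 8 estimated reads. No group had the 4 samples needed to look for a library far from the others.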

How the results depend on the processing

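Gdpd3 kept a positive difference between CML stem cells and normal HSCs under all 13 alternatives (6.16 to 8.03 in log2), and Lpar2 under all 12 in which it was tested (0.84 to 2.16), with the highest values at a pseudocount of 0.1. Gdpd3 was chosen for its ratio on this contrast, and Lpar2 passed the minimum only through its CML libraries. Their kept signs therefore add no support to the differences. Calls between CML stem cells and normal HSCs were 294, and 193 with no minimum on RPKM, 543 with LT or ST as a covariate and 115 to 217 when 1 library was left out (115 without LT-CML replicate 1, 120 without normal LT-HSC replicate 1, 189 to 191 without LT-CML replicate 2, normal LT-HSC replicate 2 or the ST-CML library). In LT cells alone they were 217, and 0 with no minimum by limma (1765 of 18513 genes at an unadjusted p under 0.05), and 6 to 225 with 1 library left out (6 without either LT-CML library, 74 and 32 without normal LT-HSC replicates 1 and 2). Stem against KLS- gave 6123 calls and 3178 to 6338 with 1 library left out (3178 without the CML-KLS- and 3657 without the normal KLS- library). LT against ST gave 612, 283 with no minimum, 287 without the disease covariate and 110 to 718 with 1 library left out (110 without the ST-CML, 126 without the normal ST-HSC library and 373 without normal LT-HSC replicate 1). Where this left a group with 1 library, that library was assumed to vary like the others. Differences near 0 turned sign. For stem minus KLS-, Gdpd1 was -0.24 and Lpar1 -0.22 after quantile normalization, and Lpar2 was 0.014 at a pseudocount of 0.1 and 0.038 after upper-quartile scaling. With 1 library left out, Lpar1 ranged from -0.17 to 0.21 and Lpar2 from -0.082 to 0.059 in that comparison, and in LT minus ST Gdpd3 ranged from -0.86 to 0.42 (0.42 without the ST-CML library), Gdpd1 from -0.13 to 0.021 (the latter without LT-CML replicate 2) and Enpp2 from -0.22 to 0.025 (without the normal ST-HSC library). For stem minus KLS-, Gdpd3 was -0.29 at a pseudocount of 0.1, 1.35 without the normal KLS- library and -0.87 without the CML-KLS- library. Gde1 passed the threshold in the same comparison after upper-quartile scaling (adjusted p = 0.0302 from limma) and Enpp2 at a pseudocount of 0.1 (adjusted p = 0.0460 from limma). Enpp2 entered the fits only through its stem libraries, and nothing is read from its p-value. The cause of the changes under these alternatives was not tested. No paired analysis was possible because the groups share no replicate numbers in the labels. At these depths, values below 0.126 RPKM for a transcript of 1 kb rest on fewer than 3 reads.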

Other observations

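Of 7 tested genes for the hydrolysis of N-acylethanolamines and platelet-activating factor, 5 were higher in stem than in KLS- cells and none lower, beside 26.5% of all genes called higher and 48.7% called in either direction, with a median log2 difference of 0.73 against 0.08 over all genes. They were Faah (0.96), which degrades anandamide, Pafah2 (0.95), Pafah1b3 (0.73), Pafah1b1 (0.44) and Pafah1b2 (0.41). Faah passed the minimum on total RPKM only through its stem libraries, so that call adds no support. Faah was also lower in LT than in ST cells (-0.85, SE 0.16, adjusted p = 0.0181 from limma). Between CML stem cells and normal HSCs none of the 7 passed the threshold, and the largest differences were 1.16 for Pla2g7 (SE 0.29, adjusted p = 0.119 from limma) and 0.74 for Pafah2 (SE 0.16, adjusted p = 0.0667 from limma).

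In the choline and ethanolamine branch of phospholipid synthesis, 2 of 11 tested genes were called higher and 2 lower in stem than in KLS- cells, no larger a share than the 48.7% of all genes called in this contrast. Those higher were Etnk1 (1.01), an ethanolamine kinase, and Chka (0.62), a choline kinase. Pcyt1a (-0.73), the enzyme of the rate-limiting step of phosphatidylcholine synthesis, and Ept1, listed in the files as D5Wsu178e (-0.75), were lower. In CML against normal stem cells none passed the threshold, with Slc44a2, a choline transporter-like protein, at 0.83 (SE 0.20, adjusted p = 0.104 from limma) and Etnk1 at -0.48.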
